A study of Mus musculus with 8 samples.

Results

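Gpihbp1 and 9 of its relatives in the Ly6 family, which lie with it on mouse chromosome 15, were followed through the hearts of male Gpihbp1 knockout and wild-type mice. The members were Gpihbp1, Psca, Lypd2, Lynx1, Slurp1, Ly6e, Ly6a, Ly6c1, Ly6c2 and Ly6h, matched by symbol, and all 10 were found among the 17190 genes of the table. The set was chosen by name, as Ly6 family neighbours of Gpihbp1, with the read counts and fold changes of these same hearts already known, so levels and fold changes of the members are given as a description. Calls over all genes that include members are counted below, and nothing is supported with them.

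Each group held 4 hearts, Gpihbp1-/- hearts numbered 1, 2, 3 and 4 and wild-type hearts numbered 2, 4, 5 and 6, from mice kept on standard rodent chow. The strain, the age and the build of the knockout allele are not given in the labels. Whether the mice were littermates is not stated either, so errors measure only the spread between these hearts. Library totals ran from 9065561 to 13492971 read counts. The comparison asks how hearts without Gpihbp1 differ from wild-type hearts.

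Proteins of the Ly6 family carry a compact fold of finger-like loops held by disulfide bonds, and most are tied to the outer cell surface by a glycosylphosphatidylinositol (GPI) anchor. Gpihbp1 is the member that capillary endothelial cells use to pick up lipoprotein lipase from the space around muscle and fat cells and carry it to the vessel lumen, where the lipase releases fatty acids from triglyceride-rich lipoproteins. Other members serve quite different ends: Lynx1 and Ly6h modulate nicotinic acetylcholine receptors in the brain, Slurp1 is secreted by keratinocytes, and Ly6a (Sca-1), Ly6c1, Ly6c2 and Ly6e mark endothelial, progenitor or blood cells of the mouse.

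The coding sequences show what the members share and where Gpihbp1 differs. Cysteine codons, which supply the disulfide bonds, numbered between 10 and 12 in the principal coding sequence of every member in GENCODE release M21 (GRCm38). What set Gpihbp1 apart was an acidic stretch, known to help it hold lipoprotein lipase: its most acidic window of 25 codons held 17 codons for aspartate or glutamate, whereas no other member had a window with more than 5. That window, from coding base 70 to 144 on the plus strand, is printed with its codons for aspartate and glutamate in capitals.
Gpihbp1: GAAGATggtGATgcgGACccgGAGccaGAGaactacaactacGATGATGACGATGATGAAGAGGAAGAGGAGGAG

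Psca and Lypd2 are shown because their values stood on opposite sides in knockout hearts. Psca, on the plus strand, had 123 codons and Lypd2, on the minus strand, 127 codons without the stop. The windows of 80 codons richest in cysteine are printed, from coding base 37 to 276 in Psca and from 58 to 297 in Lypd2. Cysteine codons, 10 in each window, are in capitals.
Psca: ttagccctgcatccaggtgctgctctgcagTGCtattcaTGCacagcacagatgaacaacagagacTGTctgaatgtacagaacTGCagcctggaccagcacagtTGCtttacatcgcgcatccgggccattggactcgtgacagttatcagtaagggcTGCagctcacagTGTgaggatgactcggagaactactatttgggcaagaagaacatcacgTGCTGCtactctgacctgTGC
Lypd2: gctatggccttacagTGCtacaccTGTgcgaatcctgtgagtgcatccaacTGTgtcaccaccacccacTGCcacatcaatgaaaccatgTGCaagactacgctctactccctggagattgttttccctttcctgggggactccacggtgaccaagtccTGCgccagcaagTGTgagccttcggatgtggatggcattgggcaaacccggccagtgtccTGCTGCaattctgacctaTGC

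The tissue label matched the markers. All 10 cardiomyocyte markers were read in these hearts, with summed levels from 53100 to 114400 TPM (a transcript level scaled for gene length and library) in knockout hearts and from 51690 to 104400 TPM in wild-type hearts. Knockout 2 and wild-type 2 stood apart: they had the lowest cardiomyocyte sums, 53100 and 51690 TPM, and the highest sums of 14 monocyte and macrophage markers, 4656 and 5245 TPM, where the other 6 hearts had at most 814.9 TPM. Their sums of 9 fibroblast markers were also the highest, 3428 and 2849 TPM, where the other 6 hearts had at most 1811 TPM. Gsn, on that list, was instead lowest in knockout 2 and wild-type 2, at 173 and 263 TPM. Wild-type 6 differed in another way: the atrial gene Myl4 stood at 803.8 TPM there and at most at 3.56 TPM in the other 7 hearts. The atrial genes Myl7 and Sln were likewise high in wild-type 6 alone, at 643 and 665 TPM. Nppa, also on the atrial list, was higher in knockout 2 and wild-type 2, at 10791 and 5933 TPM, than in wild-type 6, at 2807 TPM. Bmp10 did not exceed 0.11 TPM in any heart.

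Gpihbp1 was one of the more abundant family members of the wild-type heart and was all but unread in the knockout. It was listed at 0, 0, 0.74 and 0 TPM in knockout 1, 2, 3 and 4, against 160, 439, 193 and 236 TPM in wild-type 2, 4, 5 and 6. The groups were far apart, and the knockout value rested on 1 read in knockout 3. On mean TPM Gpihbp1 ranked 14118 of 17190 genes in knockout hearts and 485 in wild-type hearts. In wild-type hearts it made up between 11.2% and 21.6% of the summed TPM of the 10 members. After scaling for depth, its 5675 wild-type reads exceeded the 1 knockout read 6188-fold, with a 95% counting interval from 1110 to 244500. Among wild-type hearts the highest TPM, in wild-type 4, was 2.75 times the lowest, in wild-type 2. In CPM (read counts scaled for library by the TMM method, not for gene length) the order differed, with wild-type 6 highest at 251 CPM and wild-type 5 lowest at 72.7 CPM. Wild-type 4 also had the highest summed level of 10 capillary endothelial markers, 5727 TPM, and wild-type 2 the lowest, 1881 TPM, while wild-type 6 had 1970 TPM. In these heart samples, which hold many cell types, fewer endothelial cells and less RNA per cell cannot be told apart.

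**Figure D1:**
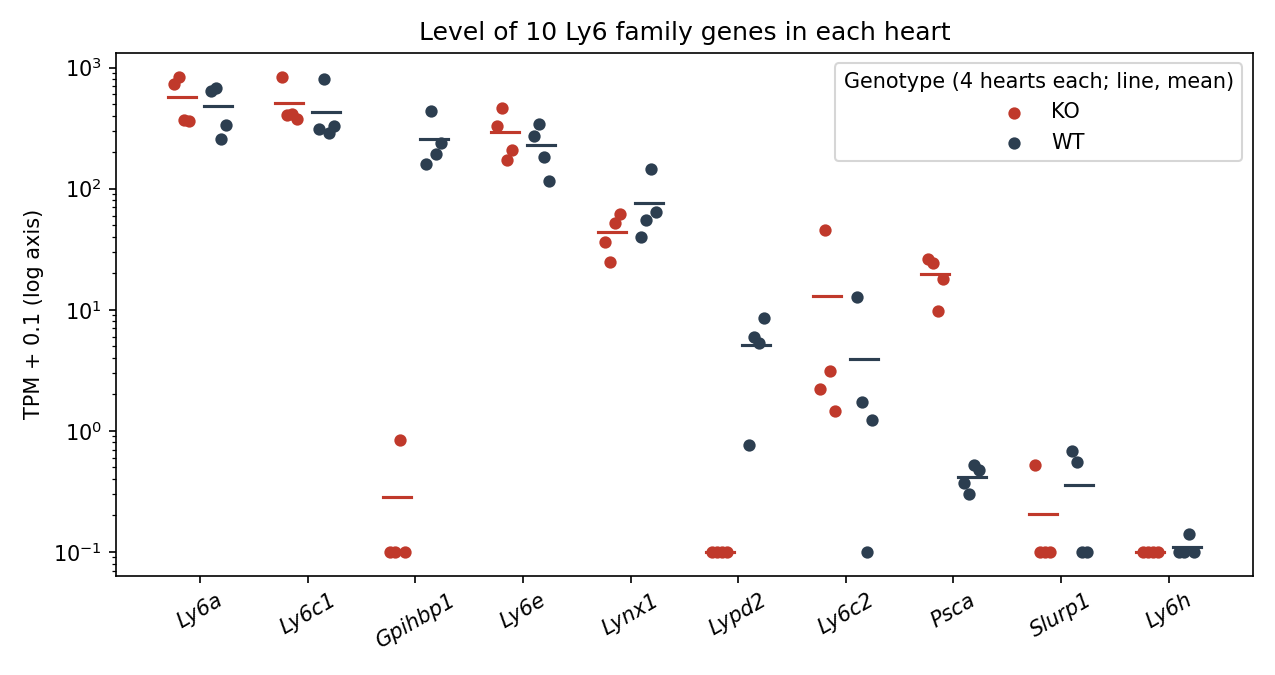
Level of each of the 10 members in each heart, as TPM plus 0.1 on a log axis, with knockout (KO, red) left of wild type (WT, dark) and a line at the mean of 4 hearts. Gpihbp1 and Lypd2 sit at or near the bottom of the axis in knockout hearts, Psca lies between 9.65 and 26.3 TPM in knockout hearts, and Ly6a, Ly6c1 and Ly6e overlap between genotypes.

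Psca, a GPI-anchored surface protein best known from epithelium of stomach, bladder and prostate, was the member with the reverse pattern. It stood at 26.3, 24.1, 9.65 and 17.9 TPM in knockout 1, 2, 3 and 4, against 0.27, 0.20, 0.42 and 0.37 TPM in wild-type 2, 4, 5 and 6. Every knockout heart was above every wild-type heart. The mean was 19.5 ± 7.45 TPM in knockout hearts and 0.315 ± 0.0988 TPM in wild-type hearts (SD, n = 4 each). These levels rested on 428 knockout reads and 8 wild-type reads, a ratio of 49.1 with a 95% counting interval from 24.7 to 114. The fitted log2 fold change was 5.45 with a standard error of 0.52. In rank by mean TPM Psca stood at place 4523 in knockout hearts and 13461 in wild-type hearts.

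Markers of epithelium and mesothelium, cell types that a heart sample could carry along, were low. Of 17 such markers 13 were listed, and their summed level ran from 4.64 to 19.9 TPM in knockout hearts and from 1.32 to 13.6 TPM in wild-type hearts. The epithelial adhesion genes Epcam and Cdh1 did not exceed 0.09 and 0.41 TPM in any heart, and the mesothelial gene Msln did not exceed 0.42 TPM. Wt1, also on this list, was read in every heart. It ran from 3.28 to 5.74 TPM in knockout hearts and from 0.64 to 5.60 TPM in wild-type hearts, with the 5.74 TPM in knockout 1. The highest sums, in knockout 2 and wild-type 2, were mostly Krt18, at 13.1 and 10.7 TPM. Psca stood at 26.3 TPM in knockout 1, where the whole marker sum was 7.15 TPM. The level of 1 gene and a sum over other genes are unlike measures, and the part of epithelial or mesothelial content in Psca was not tested.

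Lypd2, a family member with a predicted GPI anchor, went the other way at a low level. It was listed at 0 in all 4 knockout hearts, against 0.66, 5.89, 5.18 and 8.49 TPM in wild-type 2, 4, 5 and 6. All wild-type hearts were therefore above all knockout hearts, although wild-type 2 held only 2 reads. The group sums were 0 knockout reads and 68 wild-type reads, at least 24.7-fold lower in the knockout against a floor of 3 counts over the group. Lypd2 did not pass the filter on low counts and was not tested with the genes that did. In a fit without that filter the 2 members called were Psca and Gpihbp1, and Lypd2 was not called. Psca and Lypd2 lie close together. When listed genes were counted along chromosome 15 (order of GRCm38.p6), Psca was 20, Slurp1 18, Lypd2 17 and Lynx1 15 places before Gpihbp1.

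Lynx1, the brain modulator of nicotinic receptors, was read at an intermediate level. It had 35.9, 24.7, 51.6 and 61.7 TPM in knockout 1, 2, 3 and 4, against 39.7, 54.6, 144 and 64.6 TPM in wild-type 2, 4, 5 and 6. The groups overlapped, with knockout 2 lowest and wild-type 5 highest. In CPM wild-type 6 was highest instead, at 444 CPM, against 368 CPM in wild-type 5. The mean was 125 ± 52.4 CPM in knockout hearts and 273 ± 157 CPM in wild-type hearts (SD, n = 4 each). The log2 fold change came to -1.13 with a 95% interval from -2.23 to -0.028, and Lynx1 was not called over all genes. With wild-type 6 left out it stood at -0.82.

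Slurp1 and Ly6h were at the limit of detection. Slurp1 had 1 read over the knockout hearts and 3 reads over the wild-type hearts, and its annotated span overlaps the gene Them6 on the other strand in GENCODE M21. Ly6h, the immediate listed neighbour of Gpihbp1, had 0 knockout reads and 1 wild-type read. No fold change is given for either gene, since both groups lay at or under a floor of 3 counts. Neither gene can be compared between genotypes at this depth.

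Ly6a, Ly6c1 and Ly6e carried most of the family's RNA in both genotypes. Together they made up 94.3 ± 1.93% of the summed TPM of the 10 members in knockout hearts and 75.8 ± 7.56% in wild-type hearts (SD, n = 4 each), where Gpihbp1 held 17.4 ± 4.43%. The summed level of all 10 members was 1450 ± 495 TPM in knockout hearts and 1481 ± 589 TPM in wild-type hearts. With Gpihbp1 left out of the sum, it was 1450 ± 496 TPM in knockout hearts and 1224 ± 483 TPM in wild-type hearts, a gap smaller than either SD.

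**Figure D2:**
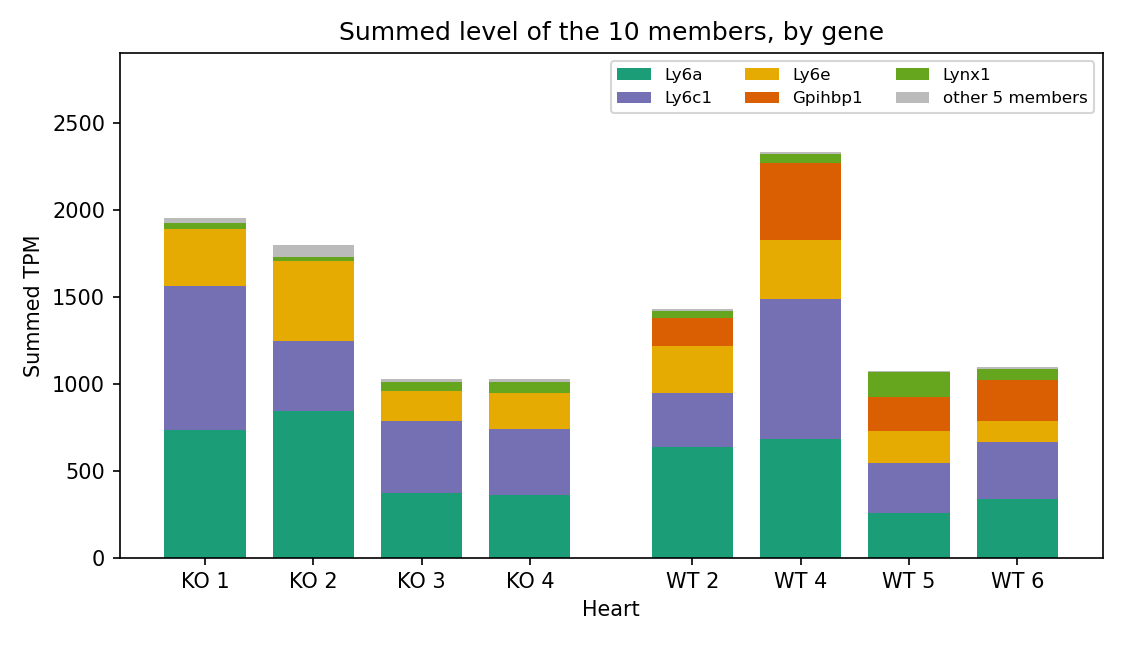
Stacked bars of TPM in each heart, knockout (KO) left and wild type (WT) right, with 1 colour for each of the 5 most abundant members of the wild-type heart and grey for the other 5. The Gpihbp1 block appears in wild-type hearts only, and KO 1 and WT 4 have the tallest bars of their groups at 1954 and 2329 TPM.

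Ly6a, the Sca-1 antigen of stem and progenitor cells that vessels also express in the mouse, had 733, 840, 372 and 361 TPM in knockout 1, 2, 3 and 4. In wild-type 2, 4, 5 and 6 it had 637, 681, 257 and 336 TPM. In TPM knockout 1 and 2 lay near wild-type 2 and 4, and the remaining hearts were lower in both groups. In CPM wild-type 6 was the highest of all 8 hearts, at 454 CPM. The log2 fold change of Ly6a was -0.13 with a 95% interval from -1.12 to 0.86.

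Ly6e, an interferon-inducible member that serves the placenta as a receptor for syncytin-A in the mouse, had 327, 460, 173 and 207 TPM in knockout 1, 2, 3 and 4. Wild-type 2, 4, 5 and 6 had 270, 342, 182 and 116 TPM. Wild-type 6 was lowest in TPM but stood at 383 CPM, above wild-type 5 at 234 CPM, knockout 3 at 269.7 CPM and knockout 4 at 296 CPM. The groups overlapped almost fully, and the log2 fold change, which rests on CPM, was 0.077 with a 95% interval from -0.74 to 0.89. This interval is the narrowest among the members, but a change of up to 0.89 in log2 units lies within it.

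Ly6c1, found on endothelial and some lymphoid cells of the mouse, had 830, 404, 413 and 378 TPM in knockout 1, 2, 3 and 4. The wild-type values were 310, 804, 289 and 330 TPM in hearts 2, 4, 5 and 6. In TPM a single heart of each group, knockout 1 and wild-type 4, stood well above the other 3. In CPM wild-type 6 joined them, with 380 CPM, against 371 CPM in wild-type 4 and 384 CPM in knockout 1. Its log2 fold change was -0.15 with a 95% interval from -1.17 to 0.88. The 2 hearts highest in Ly6c1 TPM were also those with the highest summed level of 18 endothelial markers, 1689 TPM in knockout 1 and 2234 TPM in wild-type 4. The other knockout hearts had between 894.3 and 1120 TPM and the other wild-type hearts between 576.7 and 1187 TPM of these markers. Over the 18 endothelial markers the median log2 fold change was -0.053, with 7 positive and 11 negative and 0 called. Only 0.0312% of all genes tested were called, so a count of 0 among 18 is no result about these markers.

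Ly6c2, the copy read in classical monocytes of the mouse, was low except in 2 hearts. Ly6c2 had 2.13, 45.1, 3.01 and 1.35 TPM in knockout 1, 2, 3 and 4, and 12.7, 1.63, 0 and 1.13 TPM in wild-type 2, 4, 5 and 6. The high hearts, knockout 2 and wild-type 2, were those with 4656 and 5245 TPM of monocyte and macrophage markers. Among these markers the monocyte gene Plac8 stood at 331 TPM in knockout 2 and 98.3 TPM in wild-type 2, where knockout 1 came next with 13.99 TPM. Other markers on the list were higher in wild-type 2 than in knockout 2. Ccr2 had 41.7 TPM in knockout 2 and 58.1 TPM in wild-type 2, and Lyz2 had 2041 and 2596 TPM. The list thus shared no single order between these 2 hearts. The log2 fold change of Ly6c2 was 1.28 with a 95% interval from -1.71 to 4.27, and it depended on single hearts: it was -1.10 without knockout 2 and 3.01 without wild-type 2. Without both of these hearts Ly6c2 did not pass the filter on low counts. The same hearts had the highest sums of fibroblast markers. Postn stood at 548 TPM in knockout 2 and 618 TPM in wild-type 2, against at most 19.9 TPM elsewhere. Col1a1 and Col3a1 were also highest in these hearts. Gsn, on the same list, was lowest there, at 173 and 263 TPM, against at least 586 TPM elsewhere. The part of monocyte or fibroblast content in the Ly6c2 values was not tested.

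**Figure D3:**
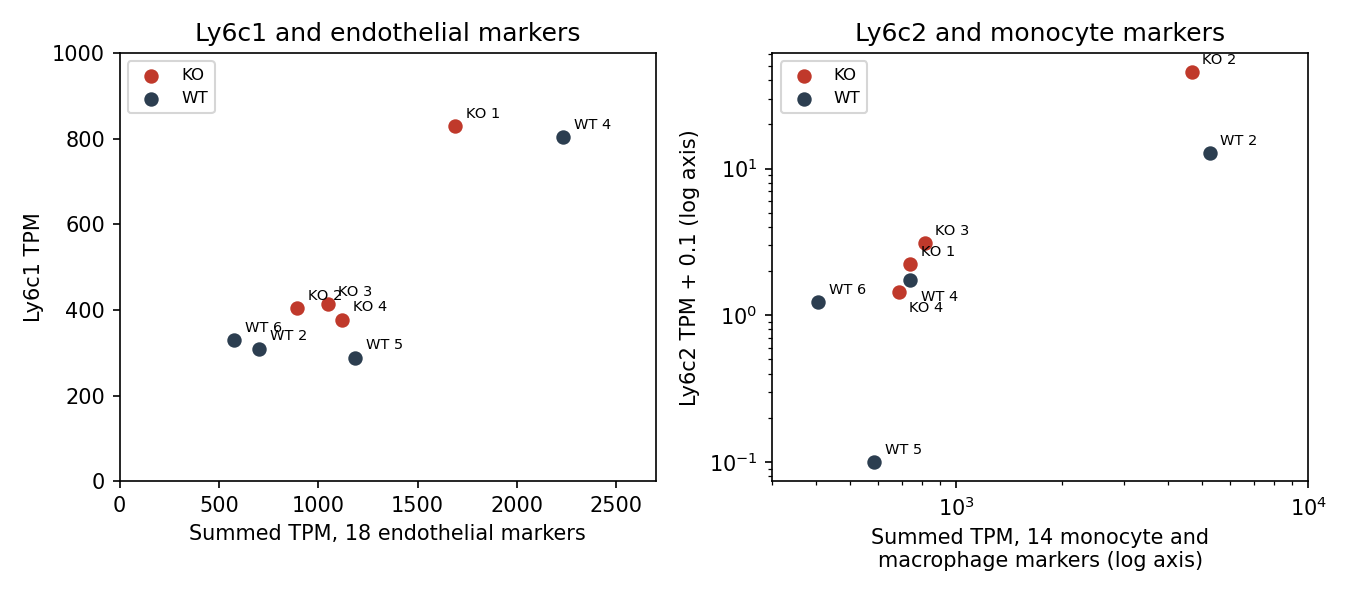
Left, Ly6c1 TPM against the summed TPM of 18 endothelial markers; right, Ly6c2 TPM plus 0.1 against the summed TPM of 14 monocyte and macrophage markers on log axes, with 1 point per heart (KO red, WT dark). KO 1 and WT 4 are high in the left panel, at 830 and 804 TPM of Ly6c1, and KO 2 and WT 2 in the right panel, at 45.1 and 12.7 TPM of Ly6c2.

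Ly6c1 and Ly6c2 are near copies, so their separate values depend on how reads were divided between them. Their coding sequences of 393 bases differed at 9 bases, an identity of 97.7%, and the longest stretch without a difference was 188 bases. Counted as windows of 75 bases, 20.7% of those in protein-coding Ly6c2 transcripts also occurred in transcripts of another gene, each of them in Ly6c1. For Ly6c1 the share was 19.1% and for Ly6a 6.33%, mostly with Ly6c1, and for the other 7 members it was 0%. Both Ly6c genes had estimated counts that were not whole numbers in most libraries. The first 120 coding bases held 6 of the 9 differences, shown in capitals on the minus strand.
Ly6c1: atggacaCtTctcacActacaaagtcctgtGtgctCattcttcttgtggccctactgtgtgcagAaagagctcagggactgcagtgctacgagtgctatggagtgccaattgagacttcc
Ly6c2: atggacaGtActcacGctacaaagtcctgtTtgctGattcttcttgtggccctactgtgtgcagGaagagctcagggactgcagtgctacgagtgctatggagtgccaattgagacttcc

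Adding the copies gives a level that does not depend on how reads were divided between them. The summed Ly6c1 and Ly6c2 level was 384.5, 182, 209.6 and 177.6 CPM in knockout 1, 2, 3 and 4, and 168.8, 372, 118.9 and 381.6 CPM in wild-type 2, 4, 5 and 6. The log2 fold change of the sum was -0.13, close to that of Ly6c1 alone. Ly6c2 took 9.74% of the Ly6c counts in knockout 2 (95% Wilson interval 8.69% to 10.9%) and 3.80% in wild-type 2 (3.11% to 4.63%). In the other 6 hearts its share was at most 0.701%. Wild-type 5 had 0 of 1362 counts, with a Wilson upper limit of 0.281%; a floor of 3 counts would be a share of 0.220%. These intervals cover counting error only, not the uncertainty of the division.

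The sequence upstream of the start differed more between the copies than the coding part. RefSeq promoters (GRCm38.p6) matched 2 of the 10 members, Ly6c1 and Ly6c2. Over the 250 bases before the start, on the minus strand at chr15:75048838-75049087 for Ly6c1 and chr15:75111972-75112221 for Ly6c2, 164 of 216 aligned bases were identical (75.9%). They are printed because the copies varied so differently between hearts; capitals mark bases without an identical partner.
Ly6c1: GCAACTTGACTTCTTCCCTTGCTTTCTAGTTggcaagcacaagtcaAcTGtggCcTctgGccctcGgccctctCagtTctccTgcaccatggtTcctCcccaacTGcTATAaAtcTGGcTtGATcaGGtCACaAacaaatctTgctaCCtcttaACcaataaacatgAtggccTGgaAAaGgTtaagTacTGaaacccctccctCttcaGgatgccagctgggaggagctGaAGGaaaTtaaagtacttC
Ly6c2: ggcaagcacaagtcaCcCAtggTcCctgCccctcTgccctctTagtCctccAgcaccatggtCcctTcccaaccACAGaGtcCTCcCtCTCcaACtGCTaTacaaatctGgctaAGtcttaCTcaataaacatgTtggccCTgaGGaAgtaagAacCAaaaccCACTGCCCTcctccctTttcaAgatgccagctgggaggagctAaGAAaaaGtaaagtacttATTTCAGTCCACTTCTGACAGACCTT

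In these windows 3 motifs were searched on both strands. TTCNNNGAA, the core bound by STAT factors after interferon, and GAAANNGAA, a core bound by interferon regulatory factors, were in neither window. They were held by 7.02% and 7.13% of all 32851 promoter windows of the same length. GAGGAAGT, the form preferred by the myeloid ETS factor PU.1, was in the Ly6c2 window and not in the Ly6c1 window, and 2.44% of all promoters held it. The last 2 motifs were set after the sequences were seen, and a match is a description of letters, not of binding.

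Between genotypes, 2 of the 7 members that passed the filter were among the genes called by edgeR's quasi-likelihood test at an adjusted p under 0.05, Psca higher and Gpihbp1 lower. Over all 12826 genes tested 0.0312% were called, 0.0234% higher and 0.0078% lower in the knockout. The CPM values of the groups did not overlap for these same 2 of 7 members, against 0.632% of all genes tested (0.265% higher and 0.366% lower in the knockout). Since the genes were picked with these values known, nothing is read from either count. The median log2 fold change was -0.13 over the 7 members and -0.019 over all genes tested, with 3 members positive and 4 negative. Psca lost its call without wild-type 4 or wild-type 5, with log2 fold changes of 5.24 and 5.41. As single hearts were left out, the log2 fold change ran from -0.40 to 0.038 for Ly6a, from -0.49 to 0.096 for Ly6c1 and from -0.15 to 0.23 for Ly6e, so the sign of none of these 3 is given as a direction. With knockout 2 and wild-type 2 both left out, the log2 fold change was 5.26 for Psca, -11.93 for Gpihbp1, -1.14 for Lynx1, -0.21 for Ly6a, -0.18 for Ly6c1 and -0.091 for Ly6e.

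**Figure D4:**
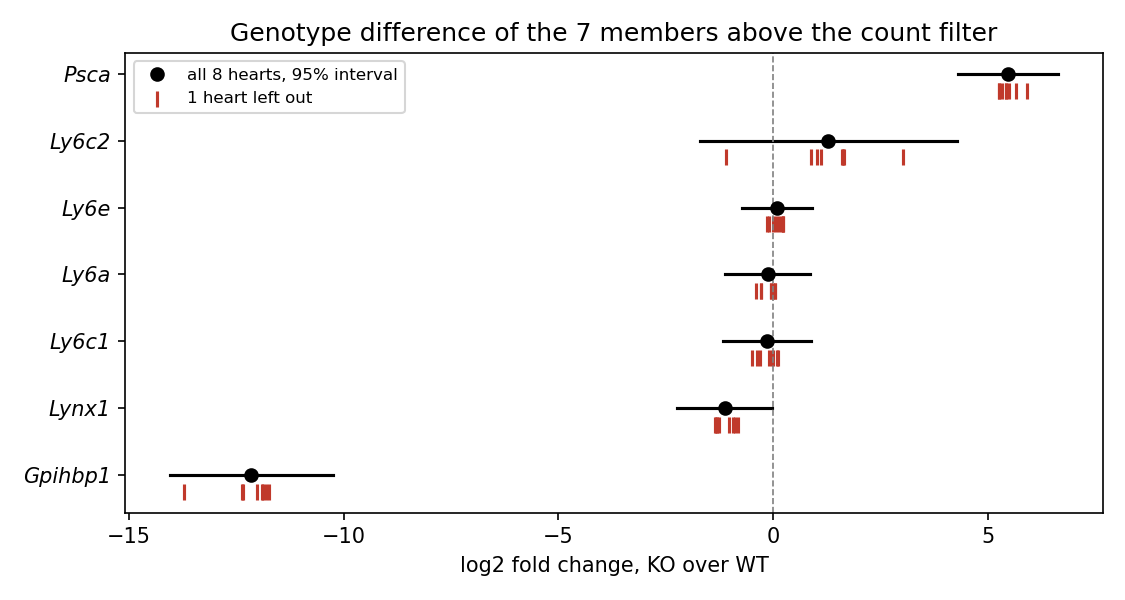
Log2 fold change (knockout over wild type) of the 7 members above the count filter, with 95% intervals from the fit of all 8 hearts in black and the values with 1 heart left out as red ticks. Psca at 5.45 and Gpihbp1 at -12.15 lie far from 0, Ly6a at -0.13, Ly6c1 at -0.15 and Ly6e at 0.077 have intervals that span 0, and Ly6c2 runs from -1.10 to 3.01 as single hearts are left out.

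Ordered by level per length, the members of the wild-type heart ran from Ly6a at 478 TPM through Ly6c1 at 433, Gpihbp1 at 257, Ly6e at 228 and Lynx1 at 75.7 to Lypd2 at 5.06, Ly6c2 at 3.85, Psca at 0.315, Slurp1 at 0.258 and Ly6h at 0.010 TPM. Between neighbours in this order the ranges over hearts overlapped except between Lynx1 and Lypd2. In the knockout heart the order was Ly6a at 576, Ly6c1 at 506, Ly6e at 292, Lynx1 at 43.5, Psca at 19.5, Ly6c2 at 12.9, Gpihbp1 at 0.185 and Slurp1 at 0.105 TPM, with Lypd2 and Ly6h at 0. There the ranges were separate between Ly6e and Lynx1 and between Ly6c2 and Gpihbp1. The deposited FPKM values gave the same places in both groups, and in them the wild-type ranges of Ly6e and Lynx1 were also separate.

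Across the 8 hearts the abundant members kept different company. Likeness was measured as the root mean square difference of log2 CPM after centring each gene on its own mean, so that small values mean like profiles. Ly6c1 was nearest to Tmem88 (0.147), Icam2 (0.179) and Ramp2 (0.183), against a median distance of 0.759 to all tested genes. Here and below the median is printed for scale only, since the nearest of all genes lie below it by construction. For Ly6a the nearest were Ecscr (0.156), Psmb8 (0.186) and Srgn (0.219), and for Ly6e Pgghg (0.127), Trmt44 (0.143) and Nsg1 (0.144). Ly6a and Ly6e were each other's nearest member at 0.319.

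Lynx1 lay nearest to Impa2 (0.305), Ephx2 (0.322) and Decr1 (0.355), and no member was closer to it than Ly6c1 at 1.04. Among the profiles near that of Ly6c2 were Ccl8 (0.454) and Bst1 (0.569), against a median distance of 1.92. The profiles of Psca and Gpihbp1 follow the genotype by which they were chosen. Psca was nearest to H3c14 (0.538), Arc (0.624) and Cyp2b10 (1.52), and Gpihbp1 to H3c15 (3.45), Fbp2 (3.45) and Cyp1a1 (3.61), against a median distance of 4.73 for Gpihbp1 and 2.36 for Psca.

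**Figure D5:**
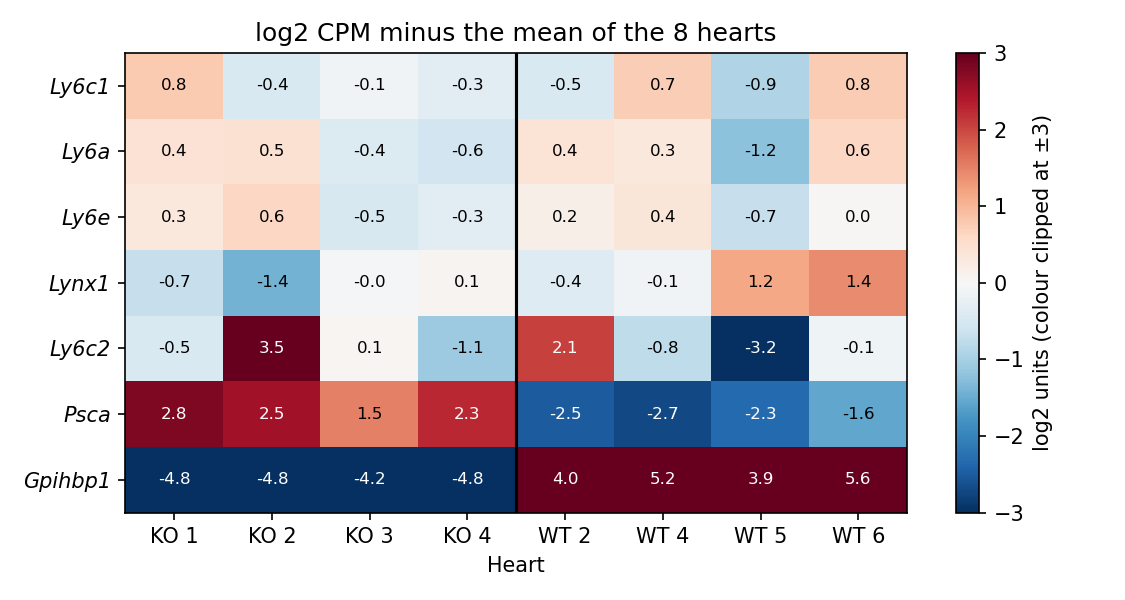
Log2 CPM of the 7 members above the count filter in each heart, minus the gene's mean over the 8 hearts (red above, blue below, colour clipped at 3), with knockout (KO) left of wild type (WT). Psca and Gpihbp1 change colour at the genotype line, whereas Ly6c2 is highest in KO 2 and WT 2, at 3.5 and 2.06.

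Over all genes tested, 0.0312% were called by edgeR and 0.904% had an unadjusted p under 0.05. By DESeq2 0.0641% were called and 1.8% had an unadjusted p under 0.05. At these shares short lists hold few such genes or none, so a count of 0 in them is no result about the list. Of 38 further genes of the Ly6/uPAR family 21 were listed, 6 passed the filter and 0 were called by edgeR's quasi-likelihood test or by DESeq2, and 0 of the 6 had an unadjusted p under 0.05 in either. Their median log2 fold change was -0.031, with 3 positive and 3 negative. Cd59a, which protects cells from complement, was the most abundant at 65.8 ± 8.83 TPM in knockout hearts and 66.8 ± 19.9 TPM in wild-type hearts (SD, n = 4 each). Its log2 fold change of -0.35 had an interval from -0.99 to 0.30 and stood at -0.12 without wild-type 6.

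Several of these relatives were highest in knockout 2 and wild-type 2. Plaur, the urokinase receptor, had 24.5 TPM in knockout 2 and 17.2 TPM in wild-type 2, and at most 5.85 TPM in the other 6 hearts. Lypd8l had 33.7 and 14.3 TPM in these hearts and at most 8.70 TPM elsewhere. Ly6k, which was below the filter, had 17.9 TPM in knockout 2 and 3.69 TPM in wild-type 2, with at most 2.20 TPM elsewhere. Cd59b and Ly6i averaged 2.33 and 2.37 TPM in knockout hearts and 2.52 and 1.78 TPM in wild-type hearts.

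Genes that work with the members were read as lists. Of 18 listed genes that handle lipoprotein lipase or its ligands with Gpihbp1, 14 were tested by edgeR and 13 given a p by DESeq2. In each 0 were called and 0 had an unadjusted p under 0.05, against the 0.904% and 1.8% of all genes. The median log2 fold change was -0.0038. The most abundant was Lpl, the lipase itself, at 1273 ± 513 TPM in knockout hearts and 1361 ± 867 TPM in wild-type hearts (SD, n = 4 each). Apoe, the lipoprotein ligand, had 703 ± 350 TPM in knockout hearts and 957 ± 1115 TPM in wild-type hearts, with 2618 TPM in wild-type 2 and between 279 and 593 TPM in the other wild-type hearts. The log2 fold change of Apoe was -0.72 with all hearts and 0.39 without wild-type 2. The matrix proteoglycan Hspg2 had 60.4 ± 13.9 TPM in knockout hearts and 55.0 ± 33.3 TPM in wild-type hearts. Their 95% intervals of the log2 fold change all spanned 0.

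Assembly of the GPI anchor, on which most members depend, was read from 31 genes, all tested, of which 0 were called by edgeR or DESeq2. At an unadjusted p under 0.05 there were 0 by edgeR and 1 by DESeq2, against 0.904% and 1.8% of all genes. The log2 fold change was positive in 14 and negative in 17, with a median of -0.016. Pigp, a subunit of the enzyme that starts the anchor, had a log2 fold change of -0.41 (interval -1.20 to 0.39), the mannose-donor synthase subunit Dpm3 -1.06 (-2.20 to 0.089) and the lipid remodelling gene Pgap2 0.42 (standard error 0.26). Without wild-type 6, Dpm3 stood at -0.40, Pigp at 0.034 and Pgap2 at 0.30. Wild-type 6 was the heart with atrial Myl4, and its place among the hearts differed between TPM and CPM for several members. The part of either trait in these shifts was not tested. Nicotinic acetylcholine receptor subunits, the partners of Lynx1 in brain, were scarce: 7 of 16 were listed, 2 were tested and 0 called by edgeR or DESeq2. Chrnb1, the muscle-type beta subunit, was the most abundant at 7.48 ± 1.97 TPM in knockout hearts and 5.64 ± 3.33 TPM in wild-type hearts (SD, n = 4 each). The neuronal subunits Chrna2 and Chrnb2 averaged 0.1 and 0.218 TPM in knockout hearts and 0.478 and 0.213 TPM in wild-type hearts.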

How the data were processed

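RNA from 8 hearts was sequenced as polyadenylated, strand-specific libraries on a DNBSEQ instrument, per the labels' protocols. One protocol paragraph names rat tissue, while every sample is given as mouse. HISAT, Bowtie2 and the build GRCm39 are named in the submitters' processing notes; the sources used here name no program that counted reads. A single table deposited by the authors holds an estimated count of reads, TPM and FPKM for each gene and library, per the file headers. Of its per-sample columns 8 were empty and were not used. Between 4.32% and 5.89% of a library's gene values were not whole, so each estimated count as deposited was rounded. TPM and FPKM deposited by the authors entered no test.

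The filter filterByExpr, set to a count of 10 and a total of 15, kept 12826 of 17190 genes. edgeR 4.0.16 in R 4.3.3 was fitted to all 8 libraries after TMM scaling, by its quasi-likelihood test in robust form, with Benjamini-Hochberg adjustment over all genes; an adjusted p under 0.05 was called. A standard error is the size of the log2 fold change over the square root of its F. Profiles used log2 CPM with a prior count of 2. No 2 libraries agreed within sampling noise (chi-square per degree of freedom at least 7.59). The biological coefficient of variation was 43.7%. Counting intervals are at 95% (exact binomial or Wilson), floors are 3 counts, and both cover counting error only, since no molecular identifiers are described.

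Members, lists and the rule for named genes were chosen with earlier results of these data known. Named were all 10 members, the 6 most abundant other family genes, the 3 most abundant genes of each list with any called, and the 3 nearest profiles of each tested member, of which 1 is not reported here. Others, among them Ly6g, Ly6a2 and the cell markers, were named after their values were seen. Alternatives covered scaling, filter, DESeq2 1.42.0, a non-robust fit, a replicate block and leaving out hearts. Sequences came from GENCODE M21 and RefSeq (GRCm38.p6), another build than the authors', and coordinates are of GRCm38.p6 only.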

Additional observations from a re-analysis of the deposited data

Results flagged for a closer look

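Within each group of 4 hearts, a heart was singled out by its gap to the nearest other heart. The gap had to exceed Dixon's 95% critical share of the group's range. For normally distributed values chance exceeds that share in about 1 group in 20. TPM values need not be so distributed, and a group read in 1 heart alone is always singled out. The count of groups is therefore not held against that rate. Of 30 groups examined over the 10 members and the 6 most abundant other family genes, 13 had such a heart. Values read from 1 read alone were among them: Gpihbp1 in knockout 3 (0.74 TPM), Slurp1 in knockout 1 (0.42 TPM) and Ly6h in wild-type 5 (0.04 TPM). Ly6c1 was singled out in both groups, at 829.7 TPM in knockout 1 and 804 TPM in wild-type 4, the hearts with the highest endothelial marker sums. Ly6c2 was singled out at 45.1 TPM in knockout 2 and 12.7 TPM in wild-type 2. The same pair of hearts carried Plaur at 24.5 and 17.2 TPM and Ly6k at 17.9 and 3.69 TPM, and knockout 2 carried Lypd8l at 33.7 TPM. Ly6i had 2.66 TPM in wild-type 4, a value that rests on about 19 reads. The genes share these hearts, so the findings are not independent of each other.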

How the results depend on the processing

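Of the members, Gpihbp1 stayed called in all 17 alternatives and Psca in 14. Psca lost its call without wild-type 4, without wild-type 5, and without wild-type 2, wild-type 6 and knockout 2, the last with a log2 fold change of 5.85. Its log2 fold change ran from 5.24 to 6.14 over all alternatives. Leaving out 1 heart gave between 1 and 2 genes higher in the knockout and between 1 and 2 members called, against 3 and 2 with all hearts. Without wild-type 2, wild-type 6 and knockout 2, 1 gene was higher and 2 lower, with 1 member called. DESeq2 called 4 genes lower. The replicate block, which leaves 1 residual degree of freedom because only the numbers 2 and 4 occur in both groups, called 93 genes higher and 75 lower; the deviations of same-numbered hearts correlated at 0.908 for number 2 and 0.110 for number 4, and with fewer than 3 pairs the numbers are not taken to pair the hearts. Total-count scaling moved the median log2 fold change of all genes by 0.10. Under it Ly6a stood at 0.030 and Ly6c1 at 0.0025, against -0.13 and -0.15 with TMM scaling, so no direction is given for either. Of the medians of the gene and marker lists, 9 moved by more than the spread between hearts and 229 did not; the FPKM values moved 0 of 20 places in the order by level. Depth limits Slurp1 and Ly6h, whose reads do not exceed 3 in either group.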

Other observations

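Of 15 Ly6 relatives below the count filter, 7 had more reads in knockout hearts and 8 in wild-type hearts. Ly6k had 113 reads in knockout hearts and 38 in wild-type hearts, Ly6d 12 and 21, and Lypd6 17 and 31. Ly6g, which marks mouse neutrophils and lies 3 places before Gpihbp1, had 2, 12, 5 and 0 reads in knockout 1, 2, 3 and 4 and 0 reads in every wild-type heart. That is at least 5.81-fold higher in the knockout when 3 counts are set as the floor for all wild-type hearts together, and Ly6g was too low to be tested. The summed level of 9 neutrophil markers, S100a8 among them, was 142.2, 523.3, 380.2 and 17.4 TPM in knockout 1, 2, 3 and 4, and 63.6, 37.0, 17.4 and 65.3 TPM in wild-type 2, 4, 5 and 6. Knockout 4 had neither Ly6g reads nor a high marker sum. Of these markers 5 were tested, all 5 had a positive log2 fold change and 0 were called. An unadjusted p under 0.05 was found for 2 by edgeR and 4 by DESeq2, against 0.904% and 1.8% of all genes. The markers share the same hearts and are not independent, so nothing is read from these counts. Ly6a2 had 4, 29, 4 and 0 reads in knockout 1, 2, 3 and 4, and 4, 0, 1 and 1 reads in wild-type 2, 4, 5 and 6, so most of its reads came from knockout 2. These genes were picked out after their values were seen, and the part of neutrophil content was not tested.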
